A study of Homo sapiens with 6 samples.

Results

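The genes described here are 10 of the 57445 gene rows of a count table: 8 metastasis suppressors other than BRMS1 (CD82, GSN, ARHGDIB, MAP2K4, PEBP1, NME1, RECK and KISS1) and SPP1 and GJA1, which earlier work has named as targets of BRMS1. They were chosen by gene symbol, with earlier results of these data known, and every symbol matched 1 row. RNA was sequenced from H358 cells, an established lung cancer line (human, non-small cell, epithelial), grown in RPMI with 10% serum. Clones C1 and C2 are listed as isogenic and as BRMS1v2 A273V/A273V, that is, with the variant A273V in both alleles. WT is the parental line with wild-type BRMS1, and each group has 2 libraries. Each mutant group is 1 clone, so the variant cannot be told apart from other differences between a clone and the parental line. The labels do not say that the libraries of a group came from separate cultures, so the spread behind each p-value may be technical. Without a replicate term it is the spread between the libraries of a group. With the replicate number as a block, it is what remains after the shift between replicate numbers.

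Metastasis suppressors are genes whose loss favours the spread of a tumour while leaving the growth of the primary tumour largely intact. They act at many levels: CD82 organises membrane receptors, GSN and ARHGDIB act on actin and its regulators, MAP2K4, PEBP1 and NME1 act in kinase signalling and nucleotide metabolism, and RECK and KISS1 act outside the cell. BRMS1 works in the nucleus with the SIN3-HDAC co-repressor complex. SPP1 encodes osteopontin, a secreted phosphoglycoprotein that binds integrins and CD44 and is abundant in many lung tumours, and GJA1 encodes connexin 43, the subunit of the most widespread gap junction channel.

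The promoters of SPP1 and CD82 are shown first because these genes had the lowest values in the clones relative to WT. Their start regions also differ in composition. CD82 passed the filter on low counts through WT alone, so its difference was built in and is no support. RefSeq sequences (GRCh38.p14, 250 bases before to 50 bases after the annotated start) were matched for 8 of the 10 genes, and GSN and ARHGDIB were not matched. The windows are chr4:87975464-87975763 on the + strand for SPP1 and chr11:44565413-44565712 on the + strand for CD82, and capitals mark matches to the GC box GGGCGG.
SPP1: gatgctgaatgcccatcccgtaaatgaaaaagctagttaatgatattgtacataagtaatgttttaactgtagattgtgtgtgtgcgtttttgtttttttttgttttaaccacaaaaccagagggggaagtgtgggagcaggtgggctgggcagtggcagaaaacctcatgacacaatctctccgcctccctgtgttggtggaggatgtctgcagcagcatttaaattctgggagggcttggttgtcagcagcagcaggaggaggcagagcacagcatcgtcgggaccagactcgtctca
CD82: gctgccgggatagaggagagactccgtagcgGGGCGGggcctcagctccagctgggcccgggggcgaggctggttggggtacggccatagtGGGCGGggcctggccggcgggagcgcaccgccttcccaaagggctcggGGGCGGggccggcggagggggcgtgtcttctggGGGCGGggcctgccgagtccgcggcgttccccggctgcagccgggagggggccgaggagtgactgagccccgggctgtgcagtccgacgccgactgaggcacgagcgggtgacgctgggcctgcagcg
The SPP1 window had a GC content of 47.7% and 6 CpG dinucleotides, against a median of 58.7% and 14 CpG over all 35116 promoter windows. The CD82 window had a GC content of 76.7% and 33 CpG dinucleotides, and its 4 GC boxes began at positions -219, -159, -111 and -78 from the start. Matches were sought on both strands for AP-1 (TGANTCA, present in 7.71% of all windows), CRE (TGACGTCA, 1.85%), the TATA box (TATAAA, 11.5%), the GC box (45.0%), NF-kappaB (GGGANTTCC, 1.85%) and the CCAAT box (CCAAT, 34.6%). The SPP1 window held none of these 6 motifs. A TGAGTCA match lay at position -48 in GJA1 and at -178 in NME1, and GC boxes lay in the windows of MAP2K4, PEBP1, RECK and KISS1. A match is a description of the letters and not evidence of binding.

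The libraries held between 27527867 and 37146270 counts in genes. Of the 10 genes, 9 passed the filter on low counts and were tested among 17129 genes, and GJA1 did not pass. All 6 epithelial markers were present, with EPCAM at 582 CPM or more in every library, and all 4 immune markers and 3 of 4 fibroblast markers stayed below 1 CPM, the exception being COL1A1 at 25.9 to 57.1 CPM. The planned endothelial marker PECAM1 was not matched to a single row and is left out. Both matched endothelial markers passed 1 CPM in some library, CDH5 reaching 2.44 CPM and VWF 2.19 CPM. Their sums were 2.97 to 3.81 CPM in C1 and 2.63 to 2.70 CPM in C2, against 2.08 to 2.52 CPM in WT. The summed epithelial markers ran from 5475 to 5995 CPM in C1 and from 5270 to 5521 CPM in C2, against 4084 to 4800 CPM in WT, and the part of either marker set in the differences below was not tested. BRMS1 itself had 26.9 and 30.0 CPM in C1 and 28.6 and 25.2 CPM in C2, against 42.9 and 34.7 CPM in WT. All 4 clone libraries lay below both WT libraries, and 23.8% of all genes were separated in this way in either direction. In edgeR's test without a replicate term, the BRMS1 log2 difference of the clones' mean from WT was -0.49 and did not pass (adjusted p = 0.447). Only 0.198% of all genes passed in that test, and no blocked value is given for BRMS1. CPM is a count scaled to the total of its library, with TMM factors, and in bulk RNA fewer cells expressing a gene and less RNA per cell cannot be told apart.

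In edgeR's quasi-likelihood test without a replicate term, no gene of the 10 passed an adjusted p of 0.05 in C1 or C2. In that fit 0.0117% of all genes passed in each comparison with WT, and 2 of the 9 tested genes in C1 and 1 in C2 had an unadjusted p below 0.05. DESeq2 without the term called SPP1 in C1 and none in C2. When the replicate number was added as a block, SPP1 and CD82 fell and GSN and ARHGDIB rose in C1, which is 4 of 9 beside a background of 7.03% of all genes. CD82 passed the filter through WT alone, so its difference was built in and its call is no support, and without it the count was 3 of 8. In C2 the blocked test gave 3 of 9 against a background of 4.54%: SPP1 fell, and GSN and ARHGDIB rose (3 of 8 without CD82). The verbs "rose" and "fell" below refer to this blocked test. Both comparisons use the same WT libraries and are not independent. The 10 genes were chosen with earlier results of these data known, so these shares and those below are descriptions. The median log2 difference over all tested genes was -0.0123 for C1 and -0.0014 for C2 in the blocked test. In CPM, the libraries of clone and WT did not overlap for 6 of 9 genes in C1, against 35.1% of all genes, and for 5 of 9 in C2, against 34.8%. Without CD82 these were 5 of 8 in C1 and 4 of 8 in C2.

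**Figure D1:**
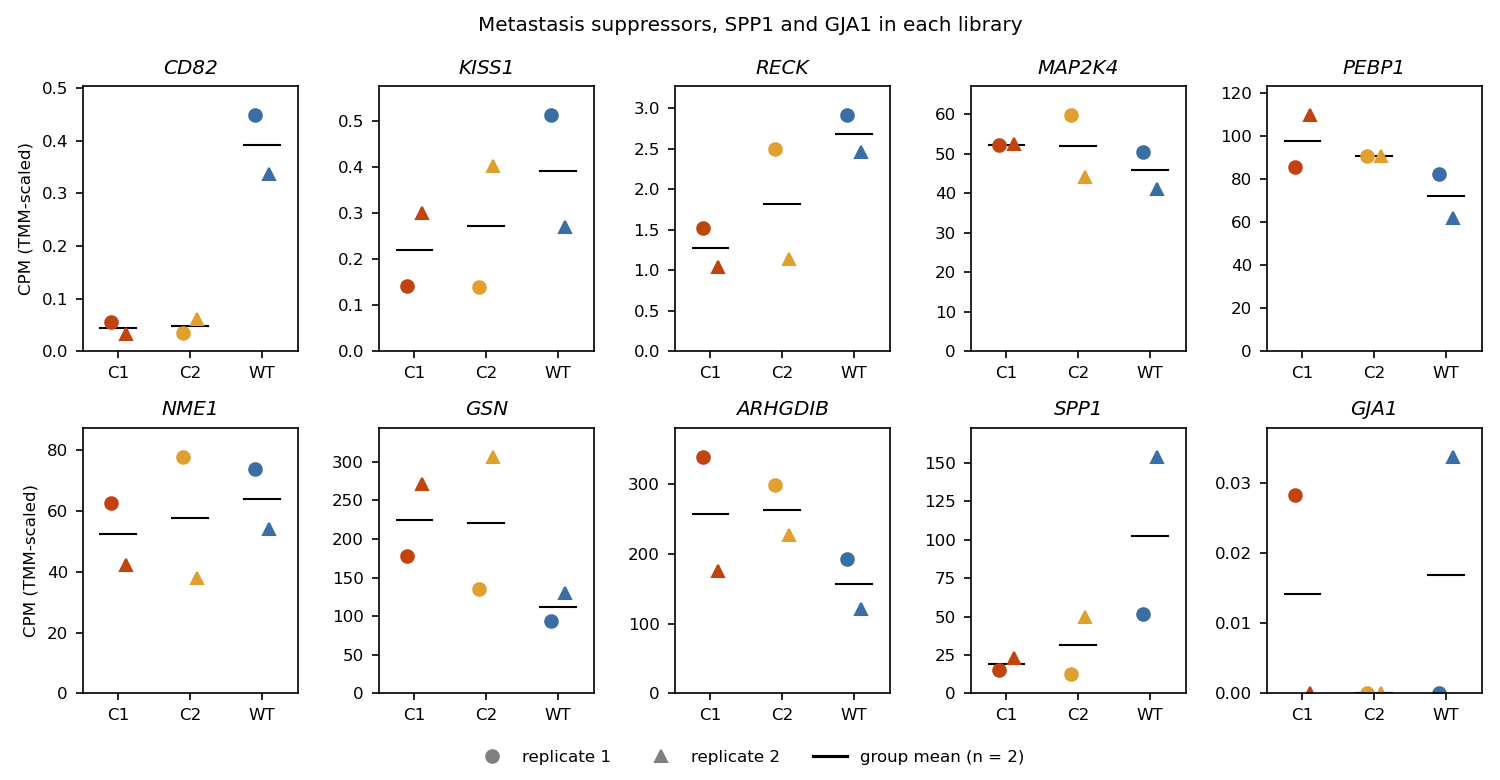
Level of each of the 10 genes in every library, in TMM-scaled CPM on axes that start at 0, with C1, C2 and WT from left to right, circles for replicate 1, triangles for replicate 2 and a bar at the mean of 2. SPP1 and CD82 lay lower in all 4 clone libraries than in both WT libraries, and GSN and PEBP1 lay higher. CD82 passed the filter on low counts through WT alone, so its separation is no support.

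SPP1, osteopontin, was lower in both clones than in WT. It had 15.0 and 23.1 CPM in C1 (replicates 1 and 2) and 12.7 and 50.1 CPM in C2, against 52.0 and 154 CPM in WT. All 4 clone libraries were below both WT libraries, although replicate 2 of C2 came within 2 CPM of replicate 1 of WT. The group means were 19.0 ± 5.73 CPM in C1 and 31.4 ± 26.4 CPM in C2, against 103 ± 71.9 CPM in WT (SD, n = 2 each). In C1, SPP1 fell by 2.23 log2 units in the blocked edgeR test (SE 0.31, adjusted p = 0.00713), to 0.213 of the WT level. In C2 it fell by 1.79 (SE 0.30, adjusted p = 0.0212), to 0.289 of the WT level. Within each replicate number the ratio to WT was 0.288 and 0.150 in C1 and 0.244 and 0.326 in C2. Without the block the log2 differences were -2.43 (SE 0.79, adjusted p = 0.548) and -1.71 (SE 0.77, adjusted p = 0.787).

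The SPP1 calls depended on single libraries, while the sign of the difference did not. With 1 library left out, the blocked log2 difference ran from -2.83 to -1.69 in C1 and from -2.30 to -1.40 in C2. In C1 the call was lost in the blocked test without WT replicate 1 (log2 difference -2.36, adjusted p = 0.228) or WT replicate 2 (-2.10, adjusted p = 0.230). In C2 it was lost without WT replicate 1 (-1.90, adjusted p = 0.296), WT replicate 2 (-1.64, adjusted p = 0.369), C2 replicate 1 (-1.40, adjusted p = 0.256) or C2 replicate 2 (-2.30, adjusted p = 0.161).

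GJA1, connexin 43, was close to absent in every group. It had 1 and 0 counts in C1 and 0 and 0 counts in C2, against 0 and 1 counts in WT. A limit of 3 counts over a group corresponds to 0.0459 CPM in C1, 0.0493 CPM in C2 and 0.0492 CPM in WT, so that no fold can be given. The related pseudogene GJA1P1 had at most 1 count in any library.

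CD82, a tetraspanin that links membrane receptors into complexes, was barely expressed in WT and lower still in the clones. It had 2 and 1 counts in C1 and 1 and 2 counts in C2, against 14 and 10 counts in WT. These are 0.057 and 0.033 CPM in C1 and 0.035 and 0.062 CPM in C2, against 0.448 and 0.337 CPM in WT, and the groups do not overlap. The gene passed the filter on low counts through the WT libraries alone, so a difference was built into its being tested. Set over whole groups, 3 counts in C1 against 24 in WT gave a ratio of 0.117 (95% counting interval 0.0225 to 0.384), and 3 counts in C2 against 24 gave 0.125 (0.0242 to 0.413). In the blocked edgeR test the log2 difference was -3.00 in C1 (SE 0.77, adjusted p = 0.0321), a call that did not hold without any 1 of the 6 libraries (adjusted p 0.0631 to 0.168). In C2 it was -2.88 (SE 0.77, adjusted p = 0.0516) and did not pass, except without C1 replicate 1 (adjusted p = 0.0163) or C1 replicate 2 (adjusted p = 0.0181). The unblocked test gave C1 an adjusted p of 0.309 and C2 one of 0.404.

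GSN, gelsolin, severs and caps actin filaments under the control of calcium. It had 178 and 271 CPM in C1 and 135 and 306 CPM in C2, against 93.4 and 131 CPM in WT. Every clone library lay above both WT libraries, with replicate 1 of C2 closest to them. In C1, GSN rose by 0.99 log2 units (SE 0.17, adjusted p = 0.00539), 1.98 times the WT level, and by 0.89 in C2 (SE 0.17, adjusted p = 0.0134), 1.85 times. Within replicate numbers C1 stood at 1.90 and 2.08 times WT, and C2 at 1.44 and 2.34 times. The C1 call held without each of the 6 libraries in turn. The C2 call was lost without C2 replicate 1 (1.20, adjusted p = 0.134) or C2 replicate 2 (0.54, adjusted p = 0.530). The unblocked test gave C1 an adjusted p of 0.652 and C2 one of 0.762. The antisense row GSN-AS1 had 13 to 26 counts, and the strand setting of the counting is not given in the sources used here.

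ARHGDIB, a GDP-dissociation inhibitor known mainly from blood cells, had the highest mean per exon length of the 10 genes. Its range over the libraries overlapped those of SPP1 and PEBP1. It had 339 and 175 CPM in C1 and 299.7 and 227 CPM in C2, against 193 and 122 CPM in WT. The C2 libraries lay above both WT libraries, while replicate 2 of C1 lay below replicate 1 of WT. In C1 it rose by 0.68 log2 units (SE 0.16, adjusted p = 0.0204), 1.6 times the WT level, and by 0.77 in C2 (SE 0.16, adjusted p = 0.0134), 1.71 times. Within replicate numbers every clone library exceeded its WT library, by 1.44 to 1.87 times. The C1 call was lost without C1 replicate 1 (0.47, adjusted p = 0.168), C2 replicate 1 (0.68, adjusted p = 0.103) or C2 replicate 2 (0.67, adjusted p = 0.0970). The C2 call was lost without C2 replicate 1 (0.98, adjusted p = 0.203) or C2 replicate 2 (0.54, adjusted p = 0.536). Unblocked, the adjusted p was 0.745 for C1 and 0.836 for C2.

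None of the 3 signalling suppressors passed in C1 or in C2. PEBP1, a phosphatidylethanolamine-binding protein that restrains kinase signalling, had 85.6 and 109.7 CPM in C1 and 90.8 and 91.0 CPM in C2, against 82.3 and 62.1 CPM in WT. Its clone and WT libraries did not overlap, and the blocked log2 differences were 0.44 in C1 (95% interval 0.04 to 0.83, adjusted p = 0.183) and 0.33 in C2 (-0.06 to 0.73, adjusted p = 0.357). Leaving out C1 replicate 1 (0.72, adjusted p = 0.0198) or WT replicate 1 (0.74, adjusted p = 0.00727) brought PEBP1 past the threshold in C1, and leaving out WT replicate 1 did so in C2 (0.65, adjusted p = 0.0330).

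MAP2K4, a kinase that activates JNK and p38, had 52.2 and 52.5 CPM in C1 and 59.7 and 44.2 CPM in C2, against 50.4 and 41.2 CPM in WT. Its C2 libraries overlapped those of WT and its C1 libraries lay above them. The blocked log2 difference was 0.20 in C1 (95% interval -0.15 to 0.56, adjusted p = 0.532) and 0.18 in C2 (-0.18 to 0.53, adjusted p = 0.630).

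NME1, a nucleoside diphosphate kinase and the first metastasis suppressor to be described, had 62.7 and 42.4 CPM in C1 and 77.6 and 38.0 CPM in C2, against 73.8 and 53.9 CPM in WT. The groups overlapped, and replicate 2 was lower in each of them. The blocked log2 difference was -0.29 in C1 (95% interval -0.67 to 0.08, adjusted p = 0.364) and -0.21 in C2 (-0.58 to 0.17, adjusted p = 0.571). NME1 overlaps its neighbour NME2, which is listed with 5 to 11 counts, and a readthrough row of both, with 337 to 767 counts, so the NME1 counts are uncertain. With the readthrough counts added, the blocked difference was -0.35 in C1 (adjusted p = 0.224) and -0.26 in C2 (adjusted p = 0.413).

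The extracellular suppressors were both low. RECK, a membrane-anchored inhibitor of matrix metalloproteases, had 54 and 31 counts in C1 and 71 and 37 counts in C2, against 91 and 73 counts in WT. In CPM the C1 libraries (1.53 and 1.04) lay below both WT libraries (2.91 and 2.46), and replicate 1 of C2 (2.49) lay between them. The blocked log2 difference was -1.09 in C1 (95% interval -1.82 to -0.36, adjusted p = 0.0723) and -0.63 in C2 (-1.34 to 0.08, adjusted p = 0.332), and in C1 it passed only without WT replicate 1 (-1.40, adjusted p = 0.0255). KISS1, the precursor of kisspeptin, had 5 and 9 counts in C1 and 4 and 13 counts in C2, against 16 and 8 counts in WT. Its groups overlapped, and the ratio of the summed counts, scaled to library size, was 0.545 in C1 (95% counting interval 0.260 to 1.10) and 0.710 in C2 (0.358 to 1.38).

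**Figure D2:**
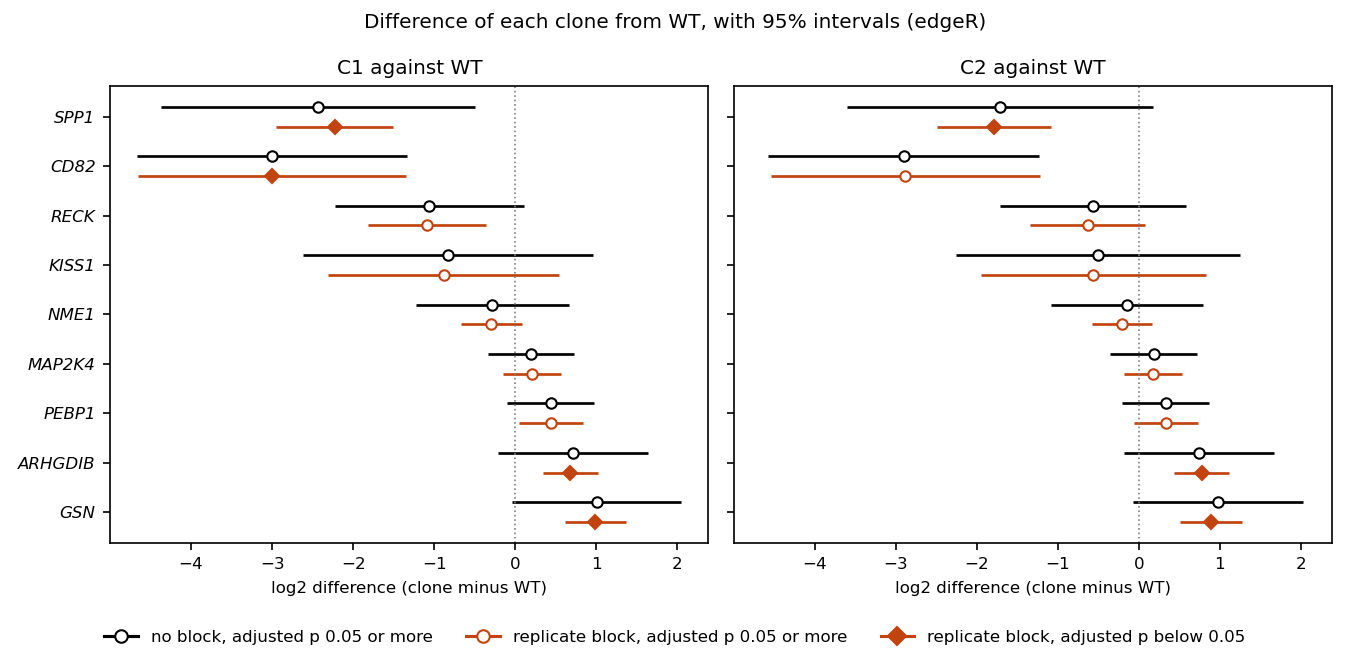
Log2 difference from WT (x axis) of the 9 tested genes, one per row, in C1 on the left and C2 on the right, with 95% intervals from edgeR. White circles mark an adjusted p of 0.05 or more, in black without the block and in orange with it, and filled orange diamonds mark an adjusted p below 0.05 with the replicate block. The diamonds are SPP1, CD82, ARHGDIB and GSN in C1 and SPP1, ARHGDIB and GSN in C2. CD82 passed the filter on low counts through WT alone, so its diamond is no support.

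The clones did not differ from each other beyond the error in any of the 9 tested genes. Without the block, 0% of all genes were called by edgeR in C2 against C1 (0 of 17129, with 61 at an unadjusted p below 0.05), and with the block 0 were called, with 642 at an unadjusted p below 0.05. DESeq2 called none of the 9 genes. In CPM the clones overlapped in all 9, where 14.6% of all genes did not overlap. For SPP1 the blocked log2 difference of C2 from C1 was 0.44 (95% interval -0.27 to 1.15), for GSN -0.10 (-0.47 to 0.28) and for ARHGDIB 0.10 (-0.24 to 0.43). For CD82 the difference was 0.12 with a wide interval (-2.33 to 2.57), from 3 counts in each clone. In the blocked test without C1 replicate 1, SPP1 alone of the 9 passed, with a log2 difference of 1.00 (adjusted p = 0.00363). These intervals do not show that the clones have the same level.

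Taking the clones' mean against WT, no gene of the 10 passed without the block, where 0.198% of all genes did, and 3 of the 9 had an unadjusted p below 0.05. DESeq2 without the block called SPP1 alone. With the block SPP1 fell by 2.01 on the log2 scale (adjusted p = 0.00319) and CD82 fell by 2.94 (adjusted p = 0.0102). GSN rose by 0.94 (adjusted p = 0.00289) and ARHGDIB by 0.73 (adjusted p = 0.0058). The background was 9.74% of all genes, and leaving out CD82, whose difference was built into its being tested, the count was 3 of 8. These calls depended on single libraries. Without WT replicate 1, SPP1 (adjusted p = 0.204) and CD82 (0.0926) no longer passed, while PEBP1 (0.00746) and RECK (0.0443) did. Without WT replicate 2, SPP1 did not pass (adjusted p = 0.241). Without C2 replicate 1, CD82 (adjusted p = 0.131) and ARHGDIB (0.0623) did not pass. Without C2 replicate 2, CD82 (adjusted p = 0.107), ARHGDIB (0.125) and GSN (0.069) did not pass. Without C1 replicate 1 the 4 calls held and PEBP1 also passed (adjusted p = 0.0174), and without C1 replicate 2 the 4 calls held. All clone libraries lay on 1 side of both WT libraries for 4 of 9 genes, or 3 of 8 without CD82, against 23.8% of all genes. PEBP1 (0.39, adjusted p = 0.158), RECK (-0.86, adjusted p = 0.0728), NME1 (-0.25, adjusted p = 0.332), MAP2K4 (0.19, adjusted p = 0.469) and KISS1 (-0.72, adjusted p = 0.474) did not pass.

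Several of these genes also differed by replicate number. In replicate 2 against replicate 1, a comparison chosen after the data were seen, SPP1 rose by 1.39 on the log2 scale (adjusted p = 0.00683) and GSN by 0.76 (adjusted p = 0.00252). ARHGDIB fell by 0.67 (adjusted p = 0.00232) and NME1 by 0.68 (adjusted p = 0.0041). These were 4 of 9 tested genes, against 24.7% of all genes. SPP1 was 1.54 times higher in replicate 2 in C1, 3.94 times in C2 and 2.96 times in WT. NME1 was the 1 gene of the 9 in which all 3 libraries of replicate 2 lay below all 3 of replicate 1, which held for 18.5% of all genes. The labels do not say what the replicate number marks.

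Expressed per kilobase of exon, 6 genes averaged 8.75 or more and the other 4 averaged 0.415 or less. ARHGDIB averaged 107 CPM per kilobase over the 6 libraries (range 57.8 to 161), a level above that of 98.4% of tested genes. The pooled mean of PEBP1 was 48.8 (34.9 to 61.6), that of SPP1 22.0 (5.47 to 66.2), that of NME1 16.9 (11.1 to 22.6), that of GSN 16.8 (8.47 to 27.7) and that of MAP2K4 8.75 (7.21 to 10.4). This is an order of means pooled over groups, and the range of SPP1 overlapped those of all 5 other genes, so its place is not resolved. SPP1 averaged 8.20 in C1 and 13.5 in C2, against 44.3 in WT, while PEBP1 averaged 54.9 in C1 and 51.0 in C2, against 40.6 in WT, and MAP2K4 averaged 9.16 in C1 and 9.09 in C2, against 8.01 in WT. The ranges of ARHGDIB and PEBP1 overlapped, as did those of NME1 and GSN and those of GSN and MAP2K4. KISS1 averaged 0.415 (0.198 to 0.722) and RECK 0.319 (0.171 to 0.481) CPM per kilobase, again with overlapping ranges. CD82 averaged 0.0399 CPM per kilobase (0.00824 to 0.110), above 0.456% of tested genes, and GJA1 lay at 0.00302. Exon lengths came from GENCODE 29, and with the longest transcript in their place NME1 (35.3) lay above SPP1 (30.7).

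**Figure D3:**
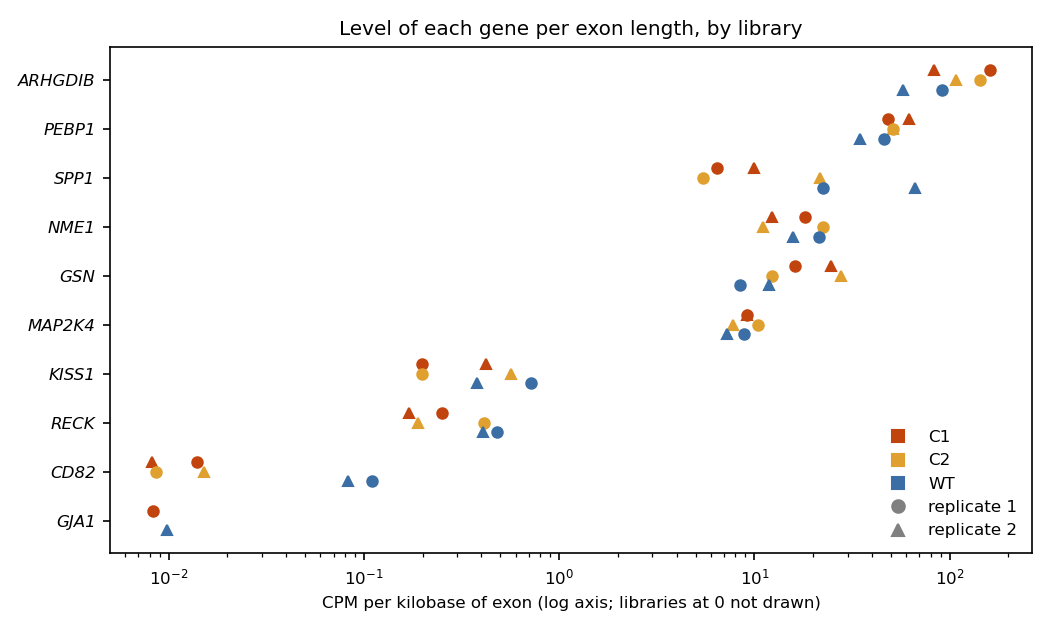
Level of the 10 genes, one per row, in CPM per kilobase of exon on a log axis, with each library drawn as a point coloured by group and shaped by replicate. Libraries at 0 are not drawn, which applies to GJA1 alone. ARHGDIB has the highest pooled mean, 107, with points that overlap those of PEBP1 and SPP1, and CD82 and GJA1 are the lowest rows.

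For the 3 tested genes with the largest difference at a mean log2 CPM of at least 1, the most similar profiles over the 6 libraries were listed, as a description that includes the shared effect of replicate number and clone. SPP1 was most like SEPP1 (Pearson r = 0.9996), C3orf33 (0.995) and SRPR (0.992) among 11652 protein-coding genes, of which 57 (0.489%) had an r above 0.95. GSN was most like DMRTA1 (0.997), SPINT2 (0.996) and SEMA4C (0.995), with 186 genes (1.6%) above 0.95. ARHGDIB was most like RHOC (0.998), ABHD3 (0.994) and RPL7A (0.993), with 146 genes (1.25%) above 0.95. An r takes no account of the size of a difference. In the blocked test of the clones' mean against WT, C3orf33, SRPR, DMRTA1, RHOC and ABHD3 did not pass (adjusted p 0.0630 to 0.520). SEPP1, SPINT2, SEMA4C and RPL7A did pass (adjusted p 0.00250 to 0.0404).

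Pathways around the 10 genes were followed in 13 lists with 134 genes, of which 103 were tested. Without the block 0 of 103 were called in either clone. In the blocked test for C1, 8 of 103 rose (7.77%) and 4 fell (3.88%), against 2.96% and 4.07% of all genes. In C2, 7 rose (6.80%) and 3 fell (2.91%), against 1.94% and 2.59% of all genes. The lists were chosen with earlier results known, so these shares are descriptions. The same shares of all genes apply to the counts in each list below, and most lists are too small to show a pattern. List genes were not refitted with libraries left out. All their log2 differences and adjusted p-values are from the blocked edgeR test.

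Among 12 tested further suppressors the medians were 0.12 (C1) and 0.32 (C2), in log2 units, and LIFR alone was called. LIFR, the receptor for leukaemia inhibitory factor, had 88.7 ± 9.24 CPM in C1 and 96.8 ± 12.4 CPM in C2, against 51.8 ± 4.86 CPM in WT (SD, n = 2 each). It rose by 0.78 in C1 (adjusted p = 0.00708) and by 0.90 in C2 (adjusted p = 0.00376). NDRG1 (0.86 and 0.36) and AKAP12 (0.13 and 0.67) did not pass.

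CD82 belongs to the tetraspanins, and the members of that list that passed the test were all higher in the clones. Among 15 tested tetraspanins and partners the median was 0.26 in C1 and 0.21 in C2, with 3 rising in C1, 2 in C2 and none falling. These counts stand beside 2.96% of all genes rising in C1 and 1.94% in C2. TSPAN3 rose by 0.68 in C1 (adjusted p = 0.011) and 0.55 in C2 (adjusted p = 0.0412), with 337 ± 45.4 CPM in C1 and 308 ± 35.0 CPM in C2, against 209 ± 5.54 CPM in WT. CD63, found on late endosomes and exosomes, rose by 0.63 (adjusted p = 0.0156) and 0.55 (adjusted p = 0.0403). TSPAN1 rose by 0.52 in C1 (adjusted p = 0.0427), and its C2 difference of 0.32 did not pass (adjusted p = 0.242).

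In the gelsolin family 2 of 7 tested genes rose in both clones, with medians of 0.40 (C1) and 0.33 (C2). Over all genes 2.96% rose in C1 and 1.94% in C2. SVIL, supervillin, which ties actin to the membrane, rose by 0.67 in C1 (adjusted p = 0.0181) and 0.67 in C2 (adjusted p = 0.0234). It had 115 ± 1.95 CPM in C1 and 115 ± 5.82 CPM in C2, against 72.5 ± 12.4 CPM in WT. VIL1, villin, rose by 1.52 (adjusted p = 0.023) and 1.89 (adjusted p = 0.00879), with counts of 21 and 164 in C1 and 18 and 251 in C2, against 8 and 53 in WT. The VIL1 counts of replicate 2 exceeded those of replicate 1 in every group, and the clone and WT libraries overlapped.

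None of the 7 tested nucleoside diphosphate kinases and 17 tested stress kinases was called in C1 or C2. The stress kinase medians were 0.08 in C1 and 0.07 in C2. MAPK14, the kinase p38 alpha that MAP2K4 can activate, differed by 0.47 in C1 (adjusted p = 0.0723) and 0.53 in C2 (adjusted p = 0.0577). For the clones' mean against WT, MAPK14 did pass, with a difference of 0.50 (adjusted p = 0.0270), where 9.74% of all genes passed.

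RECK inhibits the membrane protease MMP14 and works with the receptor ADGRA2 in WNT7 signalling. MMP14 rose by 1.14 in C1 (adjusted p = 0.0147) and 1.07 in C2 (adjusted p = 0.0287), with 13.4 ± 1.74 CPM in C1 and 13.1 ± 5.63 CPM in C2, against 6.04 ± 0.311 CPM in WT. ADGRA2, listed under the older symbol GPR124, fell by 2.01 (adjusted p = 0.0177) and 2.34 (adjusted p = 0.0134), with 6 and 13 counts in C1 and 4 and 11 counts in C2, against 19 and 57 counts in WT. The other 4 of the 6 tested genes of the list did not pass, among them WNT7B (0.53 and 0.30) and MMP9 (-0.53 and -0.20). The kisspeptin receptor gene KISS1R was not tested, with at most 2 counts in a clone library and 3 and 5 counts in WT.

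None of the 8 tested osteopontin receptors was called, with medians of 0.43 in C1 and 0.36 in C2. ITGB3, the integrin beta 3 chain, had 132 and 915 counts in C1 and 44 and 608 counts in C2, against 63 and 125 counts in WT, and did not pass (adjusted p = 0.229 in C1 and 0.531 in C2). ITGB6 had a log2 difference of 0.54 in C1 (adjusted p = 0.0519) and 0.21 in C2 (adjusted p = 0.508). IBSP, the 1 tested relative of osteopontin among the bone and tooth glycoproteins, had log2 differences of -0.14 and 0.04 and did not pass.

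The list of other connexins, pannexins and the channel partner TJP1 was mostly low, with 8 of 22 genes tested and medians of -0.72 in C1 and -0.64 in C2. Over all genes 4.07% fell in C1 and 2.59% in C2. Of the 8, 2 fell in C1, 1 fell in C2 and none rose. GJB2, 1 of the 2, fell by 2.12 in C1 (adjusted p = 0.0281), with 19 and 7 counts in C1 and 7 and 23 in C2, against 49 and 58 in WT, and its C2 difference of -1.87 did not pass (adjusted p = 0.0579). GJB5 differed by -0.92 in C1 (adjusted p = 0.0553) and -0.61 in C2 (adjusted p = 0.227).

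Of 7 tested genes among 9 others that earlier work has linked to BRMS1, 1 rose and 1 fell in both clones. PLAU, urokinase, rose by 0.97 in C1 (adjusted p = 0.00197) and 0.78 in C2 (adjusted p = 0.0101), with 1746 ± 7.07 CPM in C1 and 1548 ± 332 CPM in C2, against 899 ± 147 CPM in WT. BIRC3, an inhibitor of apoptosis in NF-kappaB signalling, fell by 1.14 (adjusted p = 0.00614) and 0.92 (adjusted p = 0.0277), with 11.7 ± 2.93 CPM in C1 and 13.8 ± 4.99 CPM in C2, against 25.3 ± 1.55 CPM in WT. FSCN1, fascin, had differences of -0.58 and -0.27 and did not pass.

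**Figure D4:**
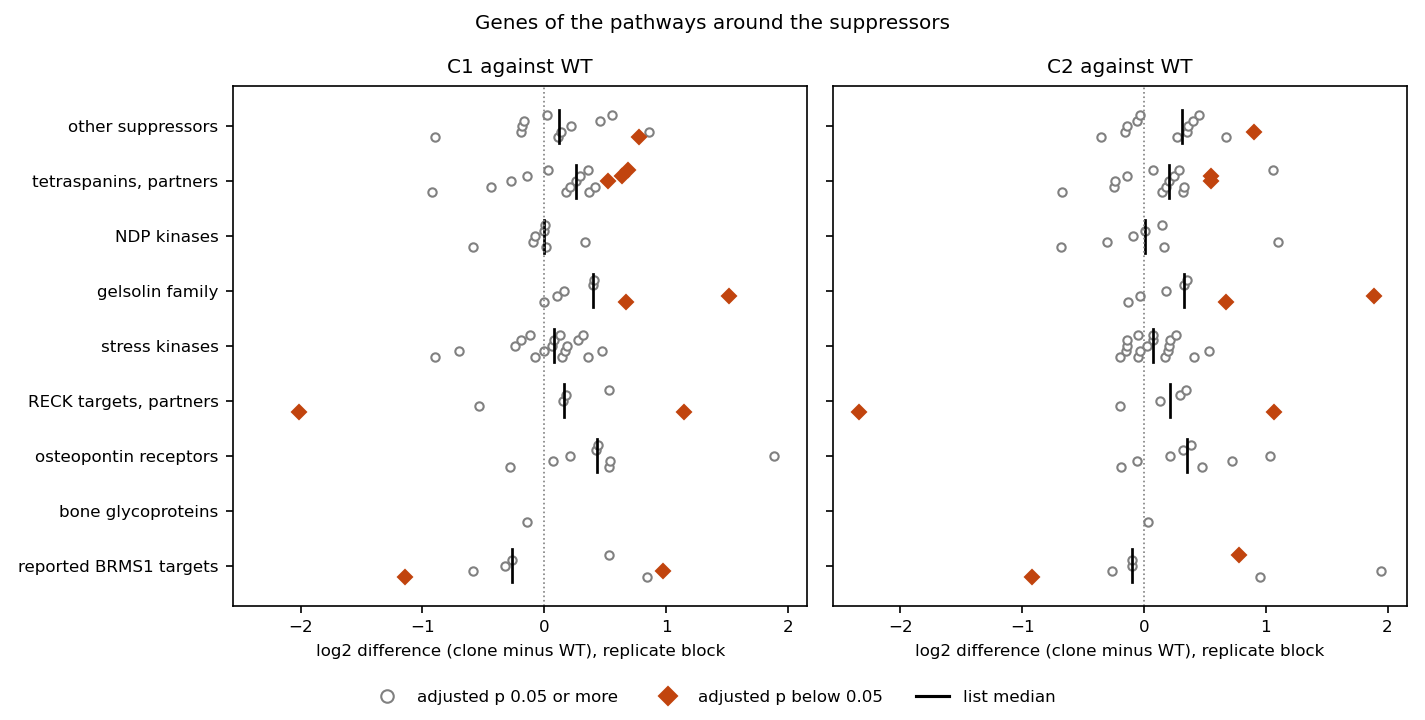
Log2 difference from WT with the replicate block (x axis) of the tested genes in 9 of the 13 lists, one list per row, in C1 on the left and C2 on the right. Filled diamonds mark an adjusted p below 0.05, open circles the other genes, and black bars the list medians. The diamonds lie to the right for suppressors, tetraspanins and the gelsolin family, and on both sides for the RECK and BRMS1 lists. The list of other connexins, in which 2 genes fell in C1, 1 fell in C2 and none rose, is not drawn.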

How the data were processed

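RNA was sequenced in 6 libraries of H358 cells, 2 each of C1, C2 and WT, grouped by sample title. Per the submitters' processing notes, the authors used cutadapt 1.6, STAR 2.5.0a and HTSeq 0.5.3 with hg19, and deposited raw read counts per gene, 1 column a library. The annotation release and strand setting are not given in the sources used here. Reads in genes made up 77.6% to 78.7% of each library, and ambiguous reads 2.62% to 2.84%; rows that name no gene were left out. Counting intervals and the floor of 3 counts leave out other error.

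The analysis used edgeR 4.0.16 (limma 3.58.1) under R 4.3.3: filterByExpr, TMM scaling, the robust quasi-likelihood F test with all 6 libraries in 1 fit (3 residual degrees of freedom), and Benjamini-Hochberg adjustment over 17129 genes, with calls at 0.05. DESeq2 1.42.0, other filters and scalings, and each library left out were alternatives. The scripts were tested on simulated data. Replicates of a group were not copies (chi-square per gene 98.1 to 127).

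The replicate number as a block was an alternative (2 residual degrees of freedom). Deviations of same-numbered libraries correlated by 0.701 (C1 and C2), 0.584 (C1 and WT) and 0.634 (C2 and WT), all above 0.1, and the numbers were treated as pairs. Only the data give this pairing. With 2 libraries a group the deviations are mirror images, so it cannot show a shared condition. Blocked values stand beside unblocked ones where the call changes.

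Genes, lists and named genes were chosen with earlier results of these data known. All 10 genes are named, and from each list the called genes and up to 3 with the largest difference of the clones from WT at a mean log2 CPM of at least 1, apart from list genes that are not reported here. IBSP and KISS1R, the lone genes of their lists to name, lie below that level. Lengths are from GENCODE 29, matched by gene ID, and promoters from RefSeq.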

Additional observations from a re-analysis of the deposited data

How the results depend on the processing

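The calls depend on the replicate block. Without it edgeR called 0 of the 9 genes in each comparison, and 2 genes of all tested in C1 against WT, 2 in C2 against WT, 0 in C2 against C1 and 34 for the clones against WT. With the replicate block the members called were 4, 3, 0 and 4, and all genes called 1204, 777, 0 and 1669. DESeq2 gave 1, 0, 0 and 1 members and 270, 209, 0 and 393 genes, and DESeq2 with the replicate block 3, 3, 0 and 3 members and 1158, 839, 20 and 1520 genes. Without the filter on low counts 296, 209 and 436 genes were called in C1, C2 and the clones' mean, and 1 member, CD82, for the clones' mean. With the libraries of the groups compared alone, 1 gene was called in C1 and 0 in C2. Other scaling, a stricter filter and non-robust dispersion kept the member counts. The cause of these shifts was not tested.

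Leaving out 1 library without the block gave 0 members throughout and 0 to 1 genes in C1, 0 in C2 and 0 to 3 for the clones' mean. With the block it gave 2 to 4 members and 178 to 1776 genes in C1, 0 to 4 and 2 to 1756 in C2, 0 to 1 and 0 to 343 in C2 against C1, and 1 to 5 and 208 to 2277 for the clones' mean.

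Signs changed only where a library was left out, with or without the block, and for no value called with all 6 libraries. Over all these fits KISS1 ran from -1.95 to 0.24 in C1, from -1.68 to 0.51 in C2 and from -1.82 to 0.38 for the clones' mean. NME1 ran from -0.74 to 0.26 in C2 and from -0.51 to 0.037 for the clones' mean, and MAP2K4 from -0.044 to 0.36 in C2. In C2 against C1 the ranges were -0.61 to 1.40 for SPP1, -0.57 to 0.68 for CD82, -0.77 to 0.45 for GSN, -0.36 to 0.56 for ARHGDIB, -0.16 to 0.93 for RECK, -0.68 to 0.94 for KISS1, -0.46 to 0.53 for NME1, -0.38 to 0.19 for PEBP1 and -0.24 to 0.16 for MAP2K4.

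A length from RefSeq transcripts was not run. CD82, KISS1 and RECK are limited by counts, and GJA1 lies below what these libraries resolve. With 1 library left out, the blocked fit keeps 1 residual degree of freedom, and the lone library of a group is assumed to vary like the others.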
